A study of Schizosaccharomyces pombe with 30 samples.

Results

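Exon-exon junctions are where splicing leaves its mark on a finished mRNA: an oligonucleotide laid across the joint between neighbouring exons pairs fully only with RNA from which the intron between them has been removed. The deposited table of log ratios held 14556 array features of 5081 fission yeast (Schizosaccharomyces pombe) genes, and 4651 of these were exon-exon junctions. All 4636 junctions whose gene also had an exon feature were taken as members. They belonged to 2269 genes, of which 1211 had more than 1 junction, and the 15 junctions of genes without an exon feature were left out. For 4610 members the table also held the intron that the junction closes, matched by the junction's first number, and for 26 members it did not. No filter on low values was applied, so every member was tested. A junction is written with its exon numbers, so bud20 1-2 joins exons 1 and 2 of bud20.

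The study examined how the histone variant H2A.Z takes part in splicing, using 30 two-colour arrays in 10 groups of 3. On each array mutant RNA was labelled with Cy5 and RNA of a wild type strain kept at the same temperature with Cy3, and no dye swap was made, so dye and genotype cannot be told apart within a group. At 30 °C the mutants were pht1∆, swr1∆, usp107DAmP and pht1∆ usp107DAmP. After a shift to 16 °C for 9 hours they were pht1∆, prp16DAmP and pht1∆ prp16DAmP, and after a shift to 37 °C for 2 hours they were swr1∆, prp16DAmP and swr1∆ prp16DAmP. Before any shift all cultures had reached mid-log phase at 30 °C in YES5, a rich medium, and total RNA was labelled. The labels do not say whether the 3 arrays of a group came from separate cultures, so the p-values measure the spread between arrays, which may be technical.

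The gene pht1 encodes H2A.Z, which replaces H2A in nucleosomes near the start of many genes, and Swr1 is the ATPase of the remodelling complex that deposits it. Usp107 is a protein of the U1 snRNP, the particle that recognises the 5′ splice site first, and Prp16 is a DEAH-box ATPase that remodels the spliceosome between its catalytic steps. DAmP alleles disturb the 3′ end of a gene to lower its mRNA and leave some of the product in place. When an intron is removed less often, its intron feature rises and, if enough transcripts are affected, the junction falls relative to the exon. An exon feature reports spliced and unspliced RNA of the gene together.

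A set of introns is printed because the junctions described below lie over them. The positions are those of the reference assembly ASM294v3 in RefSeq, to which 4011 members were placed by gene and intron order. The build behind the array and its probe sequences are not stated in the labels or the table. In each intron the first 6 bases, the last CTNAC within its final 60 bases, where present, and the closing AG are in capitals. CTNAC is the usual form of the branch sequence, whose A forms the lariat. The first 5 introns rose over wild type in pht1∆ and swr1∆.
bud20 intron 1, I:4904041-4904099, - strand, 59 bases: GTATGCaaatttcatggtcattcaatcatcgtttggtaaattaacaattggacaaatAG
ers1 intron 8, III:803558-803599, + strand, 42 bases: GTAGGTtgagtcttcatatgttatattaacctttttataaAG
rec7 intron 1, III:1548860-1548916, - strand, 57 bases: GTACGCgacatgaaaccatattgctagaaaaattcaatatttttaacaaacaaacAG
rpc82 intron 1, I:3286668-3286746, + strand, 79 bases: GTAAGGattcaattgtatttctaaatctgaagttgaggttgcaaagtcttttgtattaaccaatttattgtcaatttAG
SPAC186.08c intron 1, I:5549820-5549955, - strand, 136 bases: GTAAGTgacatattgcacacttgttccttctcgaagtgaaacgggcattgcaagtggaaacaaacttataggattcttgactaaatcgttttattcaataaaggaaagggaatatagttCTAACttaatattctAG
The next 3 introns belong to junctions that read higher in pht1∆ and swr1∆.
ssu72 intron 1, I:3176999-3177047, - strand, 49 bases: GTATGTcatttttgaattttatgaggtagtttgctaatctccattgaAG
psg2 intron 2, III:528093-528189, + strand, 97 bases: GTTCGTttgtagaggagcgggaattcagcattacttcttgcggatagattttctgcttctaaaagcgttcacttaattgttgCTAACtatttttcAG
mcp1 intron 1, I:920717-920768, + strand, 52 bases: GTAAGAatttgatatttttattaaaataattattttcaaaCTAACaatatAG
The last 3 belong to junctions that read lower in H2A.Z, U1 or Prp16 mutants.
SPAC27E2.14 intron 1, I:4012612-4012662, - strand, 51 bases: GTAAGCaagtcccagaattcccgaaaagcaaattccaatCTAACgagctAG
alg1 intron 1, I:1053168-1053243, + strand, 76 bases: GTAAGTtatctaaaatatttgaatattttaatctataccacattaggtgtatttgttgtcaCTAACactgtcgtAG
vma8 intron 1, III:2285114-2285153, + strand, 40 bases: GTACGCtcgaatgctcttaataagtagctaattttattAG
For 3 of these junctions the spliced exon ends are shown as 20 bases on each side, with the last base before and the first base after the joint in capitals.
bud20 1-2 spliced: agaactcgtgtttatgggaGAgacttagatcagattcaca
ssu72 1-2 spliced: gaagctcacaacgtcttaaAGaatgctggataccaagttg
alg1 1-2 spliced: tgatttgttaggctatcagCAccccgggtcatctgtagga
Over all 4011 placed introns, 55.3% began with GTANGT and 56.8% held CTNAC in that window, searched on the transcribed strand only. Of the 5 introns that rose, only that of SPAC186.08c held CTNAC there, while those of SPAC186.08c and ers1 began with GTANGT. Their starts were GTATGC in bud20 (3.99% of placed introns), GTAGGT in ers1 (1.5%), GTACGC in rec7 (0.773%), GTAAGG in rpc82 (2.49%) and GTAAGT in SPAC186.08c (28%). The junctions were named for their values and not for these letters, so the comparison is a description.

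Values are log ratios of mutant over wild type, read here as log2. Neither the labels nor the table state the log base, and if it were the natural log the fold changes would be larger. The junction index is the junction feature minus the exon feature of the same gene, and it says whether spliced product rose or fell relative to the transcript. Junction over intron is the junction feature minus its intron feature, in which the exon drops out. Each was tested against 0 with limma over all 30 arrays, and a member was called at an adjusted p of 0.05 or less after Benjamini-Hochberg adjustment over all members. Values are given as the mean of 3 arrays ± the SE from that fit. It pools the spread of a junction over all groups and so is the same in each group. The arrays were not equally spread: at 37 °C the SD of the index across junctions lay between 0.18 and 0.28. For pht1∆ usp107DAmP this SD ranged between 0.37 and 0.53. It also holds real differences between junctions. The pooled SE may therefore be too small in widely spread groups and too large at 37 °C.

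The exon feature of pht1 read -1.08, -0.43 and -0.44 on the pht1∆ arrays at 30 °C and -0.75, -0.65 and -0.83 at 16 °C. On the arrays labelled pht1∆ usp107DAmP it read -0.07, 0.06 and 0.08, and on those labelled pht1∆ prp16DAmP -0.16, 0.12 and -0.06, so these labels were not borne out by the targeted gene. The exon features of usp107 and prp16 averaged between -0.19 and 0.28 in the arrays labelled with their DAmP alleles, so these alleles were not clearly borne out either. No feature was found under the locus name of swr1, so the swr1∆ labels could not be checked in this way. The arrays of 6 libraries stood apart from the others of their groups or repeated many intron values. They were replicate 1 of pht1∆ at 30 °C, replicates 1 and 3 of swr1∆ at 30 °C, and replicate 3 of usp107DAmP, of pht1∆ usp107DAmP and of swr1∆ prp16DAmP. On replicate 3 of swr1∆ prp16DAmP the mean correlation with the other arrays of its group was 0.0725. Over all features replicates 2 and 3 of swr1∆ at 37 °C correlated with replicates 1 and 2 of swr1∆ prp16DAmP at between -0.528 and -0.347, so the direction of the 37 °C groups is not settled. It was taken from the dyes in the labels.

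Features of the same gene tracked each other in some groups and hardly at all in others. Across members, the junction and exon features correlated at 0.59 in pht1∆ at 30 °C, 0.62 in pht1∆ at 16 °C, 0.41 in swr1∆ at 30 °C, 0.42 in usp107DAmP and 0.44 in pht1∆ usp107DAmP. Over 2352 pairs of neighbouring junctions the values in those groups were 0.64, 0.63, 0.37, 0.44 and 0.49. In both groups carrying prp16DAmP at 16 °C, junction and exon correlated at 0.13 and 0.11, and in the 3 groups at 37 °C at between 0.03 and 0.10. These correlations run across genes and describe each group, and members of a gene share its exon feature. In the last 5 groups a feature is therefore reported under the name the table gives it, and whether rows and features of the table match there could not be checked. Indices named in those groups, and the exon features of the targeted genes there, carry that limit.

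**Figure D1:**
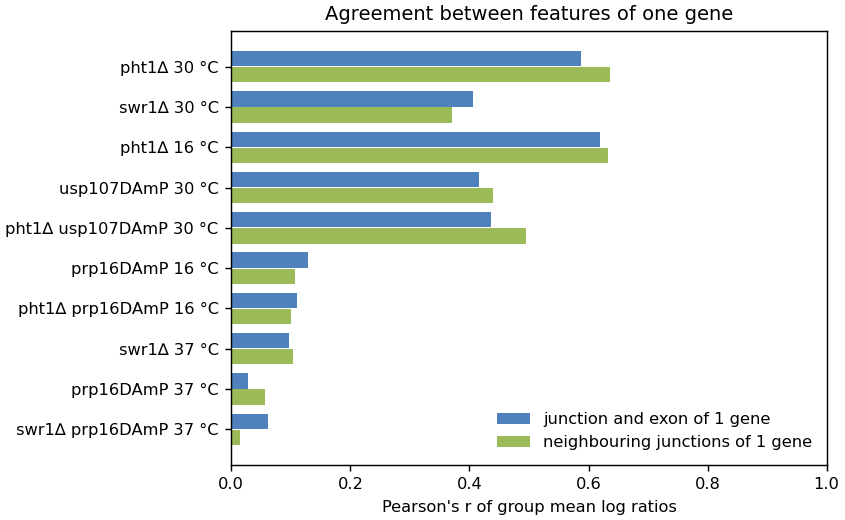
Pearson correlation across genes of the group means of features belonging to the same gene, for each of the 10 groups: junction with exon feature, and neighbouring junctions (2352 pairs). The groups pht1∆, swr1∆, usp107DAmP and pht1∆ usp107DAmP at 30 °C and pht1∆ at 16 °C lie between 0.37 and 0.64, and the other 5 groups between 0.01 and 0.13.

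The count of called junctions differed widely between groups. Because a pooled variance was applied to arrays of unequal spread, the counts do not rank the groups by size of effect. In pht1∆ at 30 °C the index rose for 240 junctions (5.18% of the 4636 members) and fell for 99 (2.14%). In pht1∆ at 16 °C it rose for 61 (1.32%) and fell for 145 (3.13%). In swr1∆ at 30 °C it rose for 92 (1.98%) and fell for 22 (0.475%), and in usp107DAmP it rose for 169 (3.65%) and fell for 236 (5.09%). The largest counts came from the arrays labelled pht1∆ usp107DAmP, with 512 higher (11%) and 867 lower (18.7%), prp16DAmP at 16 °C, with 608 higher (13.1%) and 471 lower (10.2%), and pht1∆ prp16DAmP, with 658 higher (14.2%) and 521 lower (11.2%). At 37 °C the calls were 9 in swr1∆ (0.194%), with 3 higher (0.0647%) and 6 lower (0.129%), and 5 in prp16DAmP (0.108%), with 2 higher (0.0431%) and 3 lower (0.0647%). On the swr1∆ prp16DAmP arrays they were 59 (1.27%), with 39 higher (0.841%) and 20 lower (0.431%). These counts lean on the variance estimated over all groups: with only the arrays of a group in the fit, 14 junctions were called in pht1∆ at 30 °C, 0 in usp107DAmP and 1 in pht1∆ usp107DAmP, where unadjusted p under 0.05 numbered 1197 and 1886 in the fit over all arrays. The split also depended on where 0 was placed: with each array centred on its junctions, usp107DAmP gave 282 higher and 166 lower, pht1∆ usp107DAmP 809 higher and 591 lower, and pht1∆ at 16 °C 82 higher and 99 lower. Single arrays also decided counts: without replicate 2 there were 161 calls in pht1∆ at 30 °C, 36 in swr1∆, 50 in usp107DAmP and 485 in pht1∆ usp107DAmP, and without replicate 1 there were 45 in pht1∆ at 16 °C, 362 in prp16DAmP and 407 in pht1∆ prp16DAmP.

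**Figure D2:**
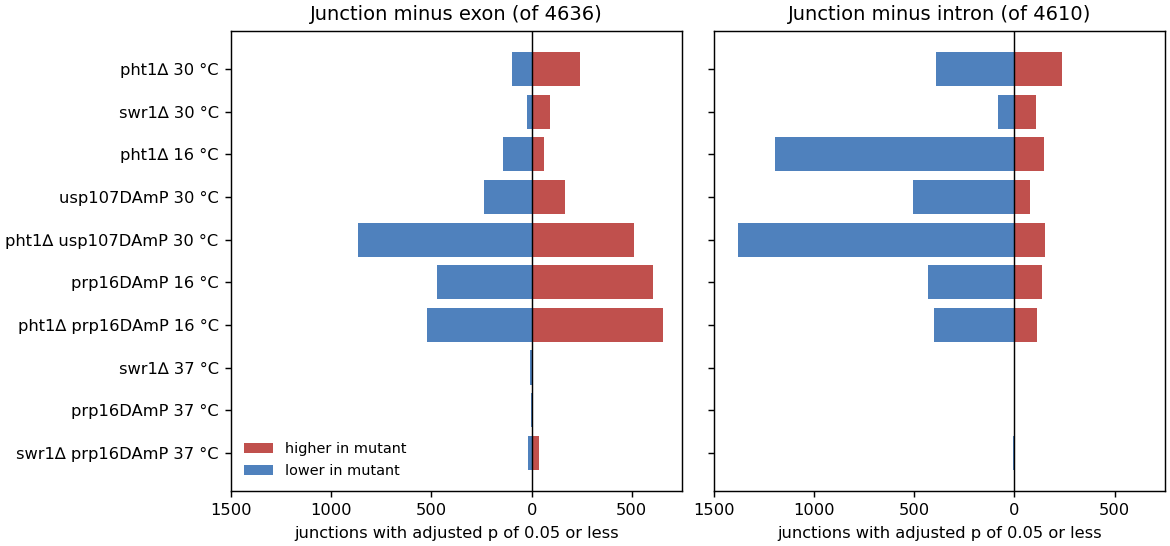
Number of junctions called higher (right) and lower (left) in each of the 10 groups at an adjusted p of 0.05 or less in limma, for the measures named in the panel titles. In pht1∆ at 16 °C the junction index was called lower for 145 members, while junction over intron was called lower for 1196.

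Junction over intron moved mostly one way. It fell in 1196 of 4610 junctions (25.9%) and rose in 150 (3.25%) in pht1∆ at 16 °C, and it fell in 1383 (30%) and rose in 153 (3.32%) on the arrays labelled pht1∆ usp107DAmP. In pht1∆ at 30 °C it fell in 390 (8.46%) and rose in 238 (5.16%), in usp107DAmP it fell in 506 (11%) and rose in 80 (1.74%), and in swr1∆ at 30 °C it fell in 80 (1.74%) and rose in 110 (2.39%). In prp16DAmP at 16 °C it fell in 432 (9.37%) and rose in 137 (2.97%), and in pht1∆ prp16DAmP it fell in 402 (8.72%) and rose in 113 (2.45%). The same centring moved these splits too: pht1∆ at 16 °C then gave 402 higher and 791 lower, pht1∆ usp107DAmP 438 and 573, usp107DAmP 160 and 218, prp16DAmP 233 and 286, and pht1∆ prp16DAmP 229 and 281. A junction index called lower together with an intron index called higher was found for 3 junctions in pht1∆ at 30 °C, 38 in pht1∆ at 16 °C, 7 in usp107DAmP and 53 in pht1∆ usp107DAmP. The intron index was called higher for 13.8%, 22.1%, 11.6% and 25.2% of all members in these groups. A junction index and an intron index that were both called higher were found for 110, 31, 68 and 329 members, and both subtract the same exon value. That was more frequent than the opposite movement in each of these groups except pht1∆ at 16 °C, with 31 against 38.

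The introns that rose furthest in H2A.Z and Swr1 mutants did so with junctions that stayed near their exons. The intron of bud20, a gene for a zinc finger protein of ribosome biogenesis, read 3.80, 2.50 and 2.86 in pht1∆ at 30 °C, 2.95, 2.26 and 2.89 in swr1∆, and 2.68, 1.05 and 1.83 in pht1∆ at 16 °C. The 9 arrays all lay far above 0. Over that intron the junction index of bud20 1-2 read 0.34, 0.31 and 0.35 in pht1∆ at 30 °C, 0.38, 0.51 and 0.03 in swr1∆, and -0.08, -0.08 and -0.30 in the cold. Its mean of 0.33 ± 0.13 in pht1∆ at 30 °C was not called (adjusted p = 0.12), and junction and exon features both lay below 0 there, at -0.40 and -0.73. Junction over intron was -3.45 ± 0.25 (adjusted p = 1.7e-10) in pht1∆ at 30 °C, -2.86 in swr1∆ and -1.84 in pht1∆ at 16 °C.

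The RNA silencing factor gene ers1 showed the same at intron 8. That intron read 2.26, 2.19 and 2.20 in pht1∆ at 30 °C, 1.77, 1.85 and 2.58 in swr1∆, and 2.59, 1.57 and 3.2 in pht1∆ at 16 °C. The index of ers1 8-9 averaged 0.04 ± 0.15, -0.17 ± 0.15 and -0.19 ± 0.15 in these groups, and 0 of the 3 means was called. On the arrays labelled pht1∆ usp107DAmP the intron was lower, at 1.63, 0.63 and 0.63, and the index, at -0.24, -0.96 and -0.13, was called (mean -0.44, adjusted p = 0.023).

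The remaining introns of this set behaved alike. For rec7, a meiotic recombination gene, the intron read 3.76, 1.79 and 1.76 in pht1∆ at 30 °C while the index averaged 0.07 ± 0.11. The rec7 intron read 2.54, 1.84 and 0.64 in pht1∆ at 16 °C and the index averaged -0.03. The intron of SPAC186.08c, annotated as an L-lactate dehydrogenase, read 2.92, 1.80 and 2.43 in pht1∆ and 2.92, 2.04 and 1.95 in swr1∆ at 30 °C, with indices of -0.01 ± 0.21 and 0.23 ± 0.21. The intron of rpc82, which encodes a subunit of RNA polymerase III, averaged 1.60 in pht1∆ at 30 °C and 1.26 at 16 °C, with indices of 0.34 ± 0.14 (adjusted p = 0.17) and -0.02 ± 0.14. On the usp107DAmP arrays the index of rpc82 1-2 fell to -0.53 ± 0.14 (adjusted p = 0.023), while its intron, at 0.65, 0.56 and -0.13, was not called.

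In the cold further junctions kept level over risen introns. Intron 2 of lsd90 read 2.0, 1.55 and 1.74 in pht1∆ at 16 °C with an index of -0.15 ± 0.14. The intron of rpl2501, a gene for the large-subunit ribosomal protein uL23, read 1.37, 1.92 and 1.35 with an index of -0.13 ± 0.20. Intron 2 of dip1, which encodes an endocytosis protein, read 1.58, 0.86 and 1.29 with an index of -0.15 ± 0.12. In pop23, a subunit of RNase P and RNase MRP, the intron fell instead, at -2.53, -0.62 and -1.67, and the index of pop23 2-3 stayed at -0.06 ± 0.10. None of these 4 indices was called.

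All members were then sorted by their intron feature. The 53 junctions whose intron rose by 1 or more in pht1∆ at 16 °C had a median intron of 1.16, a median junction feature of -0.04 and a median index of -0.08, with 4 indices called lower (7.55%, against 3.13% of all members) and 1 higher. The 459 junctions with introns between 0.5 and 1 had a median intron of 0.66 and a median junction of -0.03, with 25 indices lower (5.45%) and 3 higher. In that group the share of lowered indices went from 1.89% for introns between -0.25 and 0 to 7.55% in the highest bin. The bins between held 3.17%, 4.04% and 5.45%, and the median index stayed between -0.09 and -0.01 over these bins. Where the intron had fallen further the share was 2.97% (-0.5 to -0.25) and 3.33% (-1 to -0.5, 30 junctions). In pht1∆ at 30 °C the share went the other way. It was 8.06% for introns between -1 and -0.5 and 1.39% for the 72 junctions with introns between 0.5 and 1. Those 72 had a median intron of 0.65 and a median junction of 0.09. Of the 1103 introns called higher as features (23.9%) in pht1∆ at 16 °C, 13.0% had a junction feature called lower, against 12.2% of all junctions. In pht1∆ at 30 °C the same shares were 8.09% of 371 introns (8.05% of all introns) and 11.4% of all, and on the arrays labelled pht1∆ usp107DAmP 22.5% of 448 introns (9.72%) and 29.4% of all. Over risen introns the share of lowered junctions was thus below that of all junctions at 30 °C in these groups and slightly above it at 16 °C.

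**Figure D3:**
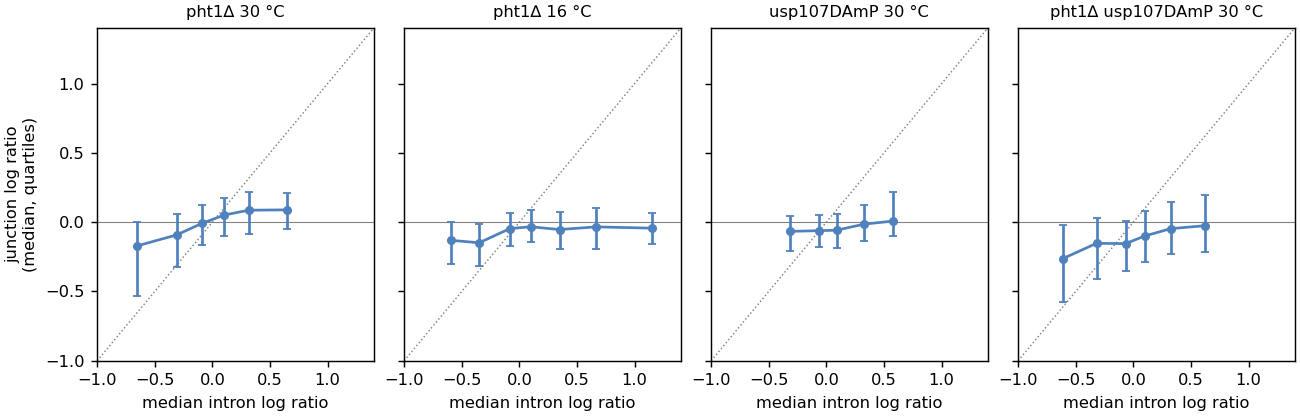
Junction feature (median and quartiles, log ratio) against the median of the intron feature (log ratio) for members sorted into bins of intron change with at least 20 members, in pht1∆ at 30 °C and 16 °C, usp107DAmP and pht1∆ usp107DAmP; the dotted line marks equal values. In pht1∆ at 16 °C the median junction stays between -0.15 and -0.03 while the median intron runs from -0.60 to 1.16.

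A small set of junctions rose strongly in the H2A.Z and Swr1 mutants. One of them, with exon and intron near 0 in pht1∆ at 30 °C, was in ssu72, which encodes a phosphatase of the RNA polymerase II C-terminal domain. Its index read 1.90, 1.54 and 2.15 in pht1∆ at 30 °C, 1.10, 1.15 and 2.28 in swr1∆, and 2.08, 1.46 and 1.06 in pht1∆ at 16 °C. All 9 arrays lay above 1. In pht1∆ at 30 °C the mean was 1.87 ± 0.19 (adjusted p = 1.8e-07), the exon read 0.06, 0.01 and -0.09, and the intron 0.10, -0.14 and -0.18. In the other mutant groups the index was smaller: 0.49 ± 0.19 in usp107DAmP (adjusted p = 0.096), 0.12 on the arrays labelled pht1∆ usp107DAmP and -0.22 in prp16DAmP at 16 °C.

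The junction psg2 2-3 followed the same groups. Its index read 2.26, 1.74 and 2.15 in pht1∆ at 30 °C, 1.42, 1.20 and 1.82 in swr1∆, and 1.26, 0.92 and 0.89 in pht1∆ at 16 °C. The lowest of the 3 means, 1.02 ± 0.12, was still called (adjusted p = 4.2e-06). The exon of psg2 lay somewhat below 0 in pht1∆ at 30 °C, at -0.39, -0.39 and -0.63, so the junction feature alone averaged 1.58. The index was 0.20 in usp107DAmP and 0.15 on the arrays labelled pht1∆ usp107DAmP, and neither was called.

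The index of mcp1 1-2 spread more between arrays, at 3.01, 1.14 and 2.07 in pht1∆ and 2.53, 0.93 and 1.90 in swr1∆ at 30 °C. Both means were called, at 2.08 (adjusted p = 4.1e-06) and 1.79 (adjusted p = 6.6e-05). Without the 6 arrays that stood apart only replicate 2 of swr1∆ was left, and its 0.93 was not called (adjusted p = 0.14). It read 1.42, 0.75 and 0.11 in pht1∆ at 16 °C.

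Other high indices came with a lowered exon. For frg1 3-4, in a gene of an mRNA-processing protein family, the index was 1.59 in pht1∆ at 30 °C, 1.53 in swr1∆ and 1.35 in pht1∆ at 16 °C, with junctions of 0.70, 0.86 and 0.58 and exons of -0.89, -0.67 and -0.76. For rpl3002 1-2, in a gene for the ribosomal protein eL30, the index was 1.52 in pht1∆ and 1.51 in swr1∆ at 30 °C with exons of -0.89 and -0.74. For csn5 1-2, in the gene of a COP9 signalosome subunit, it was 1.48 in pht1∆ at 30 °C with an exon of -0.85, and 1.13 at 16 °C, where it was no longer called without replicate 1 (0.85, adjusted p = 0.098). The junction grt1 2-3, in a transcription factor gene, was called higher in 7 groups, from 0.50 in prp16DAmP at 16 °C to 1.54 in pht1∆ at 16 °C. Of the 240 indices that rose in pht1∆ at 30 °C, 97 moved further in the junction than in the exon (40.4%), and the median junction and exon among the 240 were 0.18 and -0.40.

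Junctions of spt20 and sec15 rose at both temperatures. The index of spt20 2-3, in the gene of a SAGA coactivator subunit, read 1.80, 0.88 and 1.14 in pht1∆ at 30 °C, where it was called, and 1.45, 1.07 and 1.16 in pht1∆ at 16 °C (adjusted p = 5e-05), with junction features of 1.27, 0.89 and 0.80. The index of sec15 3-4, in the gene of an exocyst subunit that tethers secretory vesicles, read 1.5, 0.60 and 1.22 in pht1∆ at 16 °C (adjusted p = 0.0059) and 0.77, 1.56 and 0.86 in swr1∆ at 30 °C (adjusted p = 0.01). In pht1∆ at 30 °C its mean of 0.72 was not called (adjusted p = 0.071), and in usp107DAmP its mean of 0.96 was. In swr1∆ at 30 °C the junction SPBC13G1.05 3-4 was called high at 1.35, but it read 2.49, 1.54 and 0.02, so replicate 3 did not share the rise.

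Junctions that fell were led by one in a gene whose exon feature rose. The index of hpz1 1-2, in a gene for a zinc finger protein of the PARP type, read -2.16, -1.54 and -3.45 in pht1∆ at 30 °C (mean -2.38 ± 0.24, adjusted p = 1.6e-07). The exon there read 1.97, 1.43 and 1.98 and the junction feature -0.19, -0.11 and -1.47, so on 2 of the 3 arrays nearly all of the index came from the exon. In swr1∆ the exon averaged 1.85 and the junction -0.04, and in pht1∆ at 16 °C they averaged 1.32 and -0.19. The index on the arrays labelled pht1∆ usp107DAmP was -0.14.

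In SPAC27E2.14, annotated as an uncharacterized protein, the junction itself fell. Its index read -1.54, -0.97 and -0.81 in pht1∆ at 30 °C, -0.68, -0.56 and -0.69 in swr1∆, and -1.46, -0.76 and -1.29 in pht1∆ at 16 °C, and all 3 means were called, at -1.11, -0.64 and -1.17. The exon read -0.04, -0.17 and -0.07 in pht1∆ at 30 °C and the intron 0.01, -0.16 and 0.07, so the loss of junction signal had no counterpart in the intron. The indices in usp107DAmP and on the arrays labelled pht1∆ usp107DAmP were 0.10 and -0.01.

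Other lowered junctions differed in which feature moved. In cnp3, a centromere protein gene, the index of junction 1-2 was -1.37 in pht1∆ at 30 °C, and exon and intron fell as well, to -1.05 and -1.51. In pby1 2-3, in a gene annotated as a tubulin-tyrosine ligase, the junction feature read -1.85, -1.88 and -1.75 and the index averaged -1.13, which was no longer called without replicate 2 (-0.92, adjusted p = 0.18). In SPBC3E7.11c 2-3, in a DNAJ domain gene, the index of -1.16 came from an exon at 0.98. The index of spn7 2-3, in a meiotic septin gene, averaged -1.16 through replicate 3 alone, which read -3.28 against -0.19 and -0.02. Of the 99 indices that fell in pht1∆ at 30 °C, 67 moved further in the junction than in the exon (67.7%).

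The junctions duc1 2-3 and dsh1 3-4 fell with flat exons in pht1∆ at 16 °C. The index of duc1 2-3 read -1.02, -0.83 and -1.33 (adjusted p = 2.2e-05), and that of dsh1 3-4 read -0.86, -1.31 and -0.82 (adjusted p = 2.9e-05). The junction of SPAC212.06c, annotated as a DNA helicase-like protein, stayed at 0.00, 0.07 and 0.14 while its exon read 1.07, 1.20 and 1.29 and its intron 1.59, 1.23 and 1.91. Its index of -1.12 thus came from the exon, and the intron rose as well. The index of ate1 1-2 rested on replicate 1, which read -2.64 against -0.11 and -0.74, and without it the value was -0.43 (adjusted p = 0.77). In swr1∆ at 30 °C 3 junctions of bdp1, a component of the RNA polymerase III factor TFIIIB, had indices of -0.97, -0.91 and -0.90, and they share an exon feature that read 0.70, 1.39 and 0.77.

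**Figure D4:**
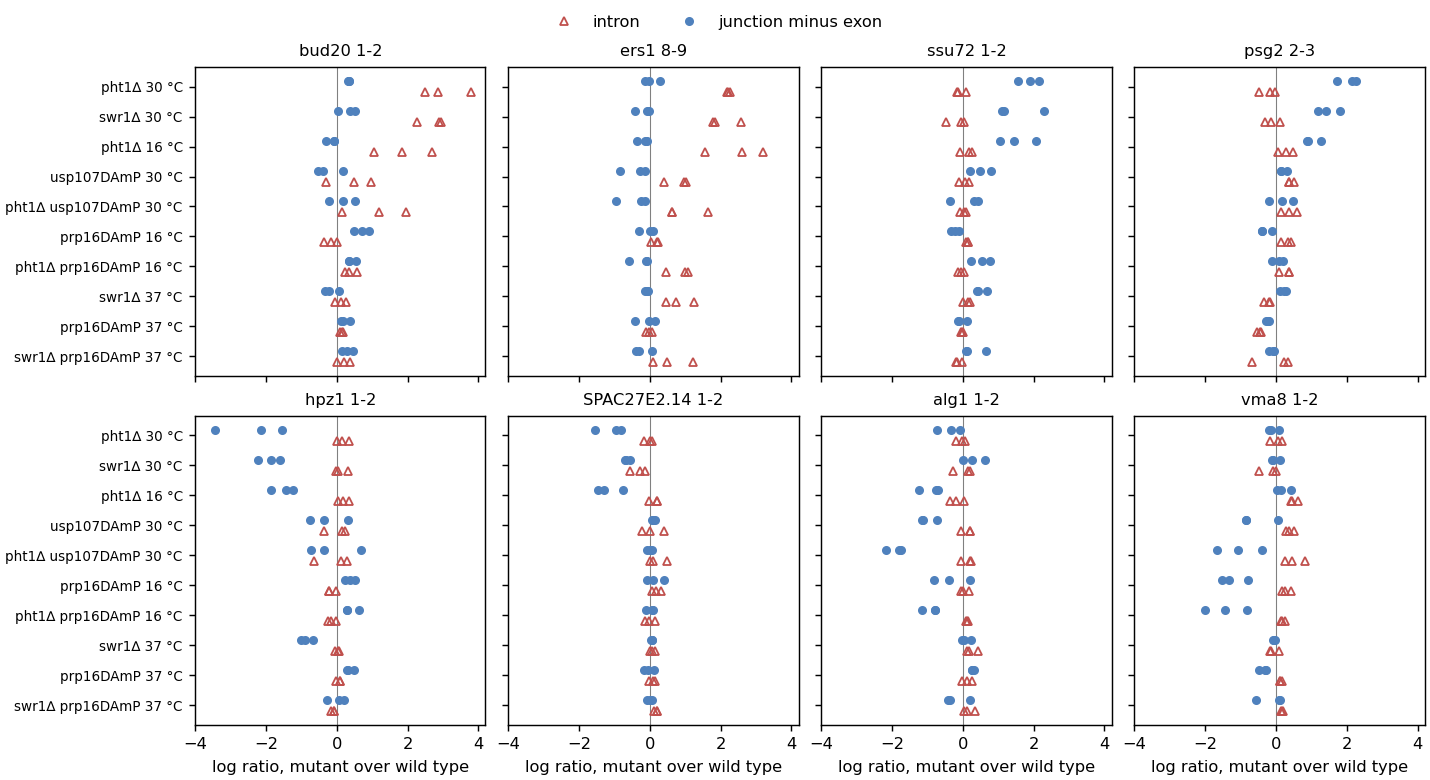
Values on each of the 3 arrays in all 10 groups for 8 junctions (bud20 1-2, ers1 8-9, ssu72 1-2, psg2 2-3, hpz1 1-2, SPAC27E2.14 1-2, alg1 1-2, vma8 1-2): junction minus exon as filled circles and the intron feature as open triangles, both as log ratios. The triangles of bud20 and ers1 stand above 1 in pht1∆ and swr1∆ at 30 °C and pht1∆ at 16 °C with the circles near 0, and the circles of ssu72 and psg2 are high in those groups.

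Swr1 deposits H2A.Z, so swr1∆ and pht1∆ were compared directly at 30 °C. Of 4636 members 4 had a higher (0.0863%) and 2 a lower index (0.0431%) in swr1∆, 0.129% in all. With same-numbered replicates as a block, which their deviations from the group means bore out, 0 were called. Without replicate 1 of swr1∆ 10 were called. The largest difference was in puf3, which encodes a pumilio family RNA-binding protein. The index of puf3 2-3 read 1.49, 0.72 and 1.45 in pht1∆ and -0.07, -0.28 and -0.07 in swr1∆, a difference of -1.36 ± 0.16 (adjusted p = 3.3e-05). The groups did not overlap, and the junction features averaged 1.28 and -0.05 with exons near 0 in both. In SPAC227.19c 1-2 the difference of -1.04 came with an exon of -1.01 in pht1∆ and 0.05 in swr1∆. The 4 higher members were shg1 1-2 (1.16), a Set1 complex subunit, ada1 1-2 (1.05), annotated as an adenosine deaminase, mrx11 1-2 (0.83) and oaa1 1-2 (0.66). In each of these the exon features of the groups differed by more than the junction features did.

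Cold and warm pht1∆ arrays were compared against wild type grown alike. The index was higher at 16 °C for 1 member (0.0216%) and lower for 18 (0.388%), 0.41% in all, and centring on the median left 1 higher and 6 lower. The count was between 4 and 7 without any 1 array of either group, except that it was 47 without replicate 3 of pht1∆ at 30 °C. The higher member was rps3002 2-3, in a gene for the small-subunit ribosomal protein eS30, with an index of -1.04 at 30 °C and 0.29 at 16 °C (difference 1.33 ± 0.27, adjusted p = 0.025). The largest fall was in dsh1 3-4, which read 0.15, 0.44 and -0.07 at 30 °C and -0.86, -1.31 and -0.82 at 16 °C (difference -1.17 ± 0.19, adjusted p = 0.0028), and the junction feature moved from 0.18 to -1.18. Ribosomal protein junctions rps2401 1-2 (-1.11) and rpl3802 2-3 (-1.08) and the thiosulfate sulfurtransferase junction rdl2 1-2 (-1.07) followed, and their exons lay between -1.06 and -0.54 at 30 °C and between 0.23 and 0.34 at 16 °C. Junction over intron differed far more often, lower at 16 °C in 579 members (12.6%) and higher in 95 (2.06%).

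Junctions were also lower in the U1 mutant. In usp107DAmP the index of alg1 1-2, in a mannosyltransferase gene of N-glycan synthesis, read -0.73, -1.16 and -1.12 (mean -1.0 ± 0.16, adjusted p = 0.00036), with junction features of -0.55, -0.97 and -0.85. On the arrays labelled pht1∆ usp107DAmP it read -1.80, -2.18 and -1.76 (mean -1.91 ± 0.16, adjusted p = 2.7e-09), below every usp107DAmP array. The intron of alg1 averaged 0.12 in both. In pht1∆ the index was -0.39 at 30 °C (adjusted p = 0.13) and -0.91 at 16 °C (adjusted p = 0.00052), so this junction was also lower in the cold.

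Among the other usp107DAmP junctions, SPAC323.07c 1-2, in a transporter gene, fell with a flat exon (index -1.12, -0.93 and -0.59). In npr2 2-3, in the gene of a nutrient-signalling complex subunit, the index of -0.96 came with an exon of 0.80. The index of vps16 1-2, in the gene of a HOPS tethering subunit, averaged -1.48 with replicate 3 at -3.42 and the others at -0.44 and -0.57. The index rose in toe4 1-2, a transcription factor gene, to 0.96, with an exon of -0.91 and a junction of 0.05. It also rose in pst2 1-2, a histone deacetylase complex gene, to 0.95 and in rpn9 1-2, a proteasome gene, to 0.95, where the junction features rose to 0.83 and 0.78. The index of rpn9 1-2 was also called higher in swr1∆ at 30 °C (0.98), pht1∆ at 16 °C (0.79) and prp16DAmP at 16 °C (0.78). The same held on the arrays labelled pht1∆ usp107DAmP (0.81) and pht1∆ prp16DAmP (0.57), so its rise was not particular to usp107DAmP.

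The arrays labelled pht1∆ usp107DAmP gave the most lowered junctions. The index of rnh1 1-2, in the gene of ribonuclease H, read -1.14, -1.30 and -1.29 (adjusted p = 7.7e-07), and its junction feature -0.72, -0.87 and -1.07. In nup45 1-2, a nucleoporin gene, it read -0.34, -1.49 and -1.91. In erg5 1-2, in a sterol desaturase gene, the junction feature read -0.43, -1.26 and -1.06 and the intron 0.86, 0.94 and 0.29, so both moved apart around an exon of 0.06. The lowered indices of ubc7 1-2 (-1.28), an E2 ubiquitin-conjugating enzyme gene, and rpn8 1-2 (-1.24), a proteasome gene, came with exons of 0.50 and 0.66. Their junction features fell as well, to -0.78 and -0.57. Raised indices in nrk1 1-2 (1.21), a nicotinamide riboside kinase gene, prp39 1-2 (1.17), a U1 snRNP gene, and tif452 1-2 (1.04), a translation initiation factor gene, came with exons of -1.03, -0.91 and -1.0. Against pht1∆ alone the index was higher in 221 members (4.77%) and lower in 704 (15.2%). The lower ones included mcp1 1-2 (-1.97), psg2 2-3 (-1.89) and ssu72 1-2 (-1.74), and hpz1 1-2 was higher by 2.24. These are the junctions that moved furthest in pht1∆ at 30 °C, and pht1 itself was not lowered on the arrays labelled with the double mutant. Without replicate 2 of the double mutant 447 were called, and without replicate 2 of pht1∆ 466.

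In prp16DAmP at 16 °C the junction vma8 1-2, in the gene of a vacuolar ATPase subunit, was the lowest by index, with -1.52, -1.34 and -0.80 (mean -1.22 ± 0.19, adjusted p = 0.00011). On the arrays labelled pht1∆ prp16DAmP it read -1.45, -0.82 and -2.0 (adjusted p = 1.8e-05), which overlapped the single mutant. The index of dtd1 3-4, in a D-Tyr-tRNA deacylase gene, read -1.16, -0.99 and -0.74 in prp16DAmP and -1.62, -1.22 and -1.22 on the arrays labelled as the double mutant, with junction features of -1.56, -1.13 and -1.04 in the latter and an intron of -0.01. The intron of vma8 averaged 0.28 and 0.19 and was not called in either.

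Raised indices in these groups mostly had lowered exons. In prp16DAmP the index of rhb1 1-2, in the Rheb GTPase gene, read 1.27, 1.15 and 1.49 (adjusted p = 3.1e-09), with exons of -0.89, -0.76 and -0.98 and junctions of 0.38, 0.38 and 0.51. The index of pci2 1-2, in a gene of the mRNA export complex TREX2, was 1.52, and that of qcr9 2-3, in a respiratory complex gene, 1.15. In qcr9 2-3 the junction, at 0.74, moved further than the exon, at -0.42. Lowered indices in lsm5 2-3 (-1.15), a U6 snRNP gene, dcp1 1-2 (-1.06), a decapping gene, and rpl2302 1-2 (-1.05) had exons of 0.47, 0.81 and 0.80. The junction feature of lsm5 2-3 fell further than its exon rose, to -0.68, and that of rpl2302 1-2 read -0.26. On the arrays labelled pht1∆ prp16DAmP the index of prp39 3-4, in a U1 snRNP gene, was 1.34 with an exon of -0.92, that of pst2 1-2 was 1.11 with a junction of 0.93, and those of tfs1 2-3 and rnh1 1-2 were -1.14 and -1.11. The intron of ppt1, a gene of ubiquinone synthesis, read 1.36, 1.47 and 1.43 there, and the index of ppt1 1-2 read -0.16, -0.12 and 0.28.

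The arrays labelled pht1∆ prp16DAmP were also set against pht1∆ at 16 °C. The index was higher in 435 members (9.38%) and lower in 249 (5.37%). The furthest were hpz1 1-2 (1.91), ppx1 1-2 (1.72) and prp39 3-4 (1.42) on the higher side, and vma8 1-2 (-1.63), efg1 (-1.60) and pab2 (-1.39) on the lower. Junction over intron was higher in 517 (11.2%) and lower in 135 (2.93%). Without replicate 1 of the double mutant 197 were called, and without replicate 1 of pht1∆ 288. The exon feature of pht1 was lowered in pht1∆ and not on the arrays labelled as the double mutant. Whether the row named pht1 reports pht1 on those arrays could not be checked. The direction of this comparison carries both limits.

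At 37 °C few junctions were called. These counts were the least settled: with only a group's own arrays in the fit they were 195 in swr1∆, 543 in prp16DAmP and 0 in swr1∆ prp16DAmP, and without replicate 3 of swr1∆ prp16DAmP 194 were called there. In swr1∆ the index of nam9 1-2, in a mitochondrial ribosomal protein gene, read -0.57, -0.91 and -0.97 (adjusted p = 0.0023), with junction features of -0.69, -0.81 and -0.89 and a flat exon. The lowered indices of SPAC15A10.06 2-3 (-0.88), arf1 1-2 (-0.88), ppx1 1-2 (-0.82), rlp24 2-3 (-0.62) and cwf12 2-3 (-0.57) had exons between 0.20 and 0.93. The raised ones were SPAC1782.02c 1-2 (0.56), sdj1 1-2 (0.54) and tif223 3-4 (0.49), and the last is in a translation initiation factor gene. In prp16DAmP the calls were rgf2 1-2 (0.65), rsc1 1-2 (0.58), dca7 1-2 (-0.46), tif223 4-5 (-0.60) and SPAC1F12.06c 1-2 (-1.32), the last with an exon of 1.45. No intron index was called in swr1∆ by limma, 0% of 4610, where 435 had an unadjusted p under 0.05.

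On the swr1∆ prp16DAmP arrays at 37 °C the index of tfs1 2-3, in the gene of an RNA polymerase II elongation factor, read -0.98, -1.35 and -1.47 (mean -1.27 ± 0.18, adjusted p = 0.00044). The index of usp108 1-2, in a gene of another U1 snRNP protein, was -0.85, and that of mus81 1-2, in the gene of a DNA junction nuclease, was -0.82. SPAC1782.02c 1-2 was high here too, at 0.39, 0.62 and 1.19. Against swr1∆ the index differed in 3.04% of members, higher in 95 members (2.05%) and lower in 46 (0.992%). With the sign of the swr1∆ arrays turned, 4 were higher and 5 lower, so this split depends on a direction that the arrays themselves do not settle. Without replicate 3 of the double mutant 432 were called, and without replicate 2 only 4.

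The junctions were then read by place in the gene and, where placed on the assembly, by intron length and 5′ splice site. In pht1∆ at 16 °C junction over intron fell in 32.8% of 984 junctions of single-intron genes, 26.9% of 1167 first junctions, 22.3% of 1211 internal junctions and 23.2% of 1248 last junctions, against 25.9% of all. It fell in 20.8% of the junctions over the shortest introns (up to 49 bases), 27.4% over the middle class and 30.7% over the longest (above 72 bases). Junctions over introns that began with GTANGT fell in 24.3% and the others in 28.7%. On the arrays labelled pht1∆ usp107DAmP the shares by length were 26.6%, 32.5% and 33.8%, and by GTANGT 31.5% and 30.3%. In pht1∆ at 16 °C the junction index was called lower for 4.24% of junctions in single-intron genes, 2.39% of internal and 2.38% of last junctions. It was called lower for 2.15% over the shortest and 3.13% over the longest introns, against 3.13% of all. These are descriptions, since junctions of a gene share its exon and its transcript.

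Junctions of genes with a common role were counted from lists. On the arrays labelled pht1∆ usp107DAmP, 24 of 80 junctions in genes of the secretory pathway (coats, small GTPases and other sec genes) had a lower index and 3 a higher one. Over all members 18.7% were lower and 11% higher, and the counts below are to be read beside these shares. The lowest were sec61 5-6 (-0.75), in the translocon gene, ypt5 2-3 (-0.72), a Rab GTPase gene, and sec1 2-3 (-0.71), a membrane fusion gene, whose junction feature fell to -0.62. Of 36 proteasome junctions 13 were lower and 2 higher, led by rpn8 1-2 and pre5 3-4 (-0.70), and pre5 had an exon of 1.03. Of 28 junctions of translation initiation and elongation factors 9 were lower and 6 higher. Of 61 junctions of the ubiquitin system 15 were lower and 7 higher. Not every list leaned this way. Of 30 junctions of large-subunit ribosomal proteins 4 were lower and 7 higher, and of 34 of mitochondrial ribosomal proteins 2 were lower and 6 higher. Of 31 junctions of small-subunit ribosomal proteins 5 were lower and 3 higher.

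Of 140 junctions in the list of spliceosome genes 18 were lower (12.9%) and 17 higher (12.1%) on the arrays labelled pht1∆ usp107DAmP. That list was drawn up by gene name and also took in srp14, a signal recognition particle gene, so its shares are not of spliceosome genes alone. Over all members the shares were 18.7% lower and 11% higher. The lowest were smd2 2-3 (-1.09), in an Sm ring gene, with a junction of -1.08, and prp19 2-3 (-1.04), with a junction of -1.11. Junctions of rsd1, an SR-like splicing factor gene, were low in pht1∆ at 30 °C, at -1.06, -0.99 and -0.98, beside an exon of 1.12 that they share, and prp17 1-2 was high at 1.11 with a flat exon. In pht1∆ at 16 °C 0 of 55 junctions of the respiratory chain and ATP synthase had a called index. Over all members few were called there too, 1.32% higher and 3.13% lower. Of the 55, 21 had junction over intron lower (38.2%, against 25.9% of all). Of 133 junctions in genes with meiotic names (mug, rec, mei, meu, spo or mde) 31 had junction over intron lower in that group (23.3%).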

How the data were processed

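Total RNA of fission yeast was hybridised to two-colour arrays with features for exons, introns and exon-exon junctions. The deposited table held 1 log ratio per feature and array, read as log2, and per the labels' protocols mutant RNA carried Cy5 and wild type RNA Cy3. The authors' background correction, normalization, log base, array build and spot intensities are not stated in the labels or the table. The deposited values, read as log2, were used unchanged: array medians lay within 0.0254 of 0, no value was missing, and values ran from -5.53 to 4.38. With 3 arrays a group, the number of arrays limits the precision.

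Junction minus exon, intron minus exon and junction minus intron were formed on each array. Each was fitted in R 4.3.3 with limma 3.58.1 (lmFit and eBayes, 1 mean per group over all 30 arrays) and tested against 0, or between groups in 5 direct comparisons, with Benjamini-Hochberg adjustment over all members and a threshold of 0.05. The fitting code was tested on simulated data. Junctions named were, in each group, the 6 highest and 6 lowest called indices with the same sign on all 3 arrays, the 5 lowest and 3 highest called for junction over intron, the 4 highest and 4 lowest of each direct comparison, leading members of gene lists, and junctions over introns named in an earlier account of these data. Where a junction met the rule in 1 group, its values in other groups are given too. Members, lists and rule were chosen with earlier results of these data known. Gene names come from the RefSeq annotation of ASM294v3, in which 4602 members were matched and 34 were not.

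Replicate numbers in the labels were checked for pairing. Deviations from the group means of same-numbered swr1∆ and pht1∆ arrays at 30 °C correlated at 0.438, 0.575 and 0.220, so that comparison was also fitted with the number as a block. Alternatives were centring each array on its junctions, scaling arrays to equal spread, the junction feature alone, only the arrays compared, the replicate block, leaving out repeated values and leaving out each array in turn. Leaving out the 6 arrays that stood apart and turning the sign of the swr1∆ arrays at 37 °C were chosen after seeing the data.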

Additional observations from a re-analysis of the deposited data

Results flagged for a closer look

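In pht1∆, 5 named junctions differed between 16 °C and 30 °C in the direct test of the junction index. The difference, 16 °C minus 30 °C, was 1.33 in rps3002 2-3, -1.17 in dsh1 3-4, -1.11 in rps2401 1-2, -1.08 in rpl3802 2-3 and -1.07 in rdl2 1-2, with adjusted p between 0.0028 and 0.043 in limma. In rps3002 the intron feature moved with the junction, from -0.61 at 30 °C to 0.26 at 16 °C, and the junction from -1.06 to 0.44.

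At 30 °C 6 junctions differed between swr1∆ and pht1∆. The difference, swr1∆ minus pht1∆, was 1.16 in shg1 1-2, 1.05 in ada1 1-2, 0.83 in mrx11 1-2, 0.66 in oaa1 1-2, -1.36 in puf3 2-3 and -1.04 in SPAC227.19c 1-2. In puf3 and dsh1 the change lay in the junction feature, whose part in the spread between arrays was not tested. In both sets, 0 calls were left with only the arrays compared in the fit.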

How the results depend on the processing

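Over the junction indices of all named members, 2309 values under an alternative kept their direction and their side of the threshold, 359 kept the direction and lost the call, 36 gained one and 22 changed sign. All values below are numbers of called junctions unless said otherwise, and except where a cause follows from the setting (fewer arrays or residual degrees of freedom) the cause was not tested. With 3 arrays a group the pooled estimate of spread carried many calls.

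With only the arrays compared in the fit, the junction index was called for 14 in pht1∆ at 30 °C, 0 in usp107DAmP, 1 in pht1∆ usp107DAmP, 309 in prp16DAmP at 16 °C, 195 in swr1∆ and 543 in prp16DAmP after the shift to 37 °C, 0 in swr1∆ prp16DAmP and 9 in swr1∆ at 30 °C. Junction over intron was called for 100 in pht1∆ at 30 °C, 0 in usp107DAmP, 14 in pht1∆ usp107DAmP, 265 in prp16DAmP and 859 in pht1∆ prp16DAmP at 16 °C, 80 in swr1∆, 67 in prp16DAmP and 0 in swr1∆ prp16DAmP at 37 °C, and 7 in swr1∆ at 30 °C. The direct comparisons then gave 0 for 16 °C against 30 °C in pht1∆, 0 for swr1∆ against pht1∆, 25 for pht1∆ usp107DAmP against pht1∆ and 30 for swr1∆ prp16DAmP against swr1∆. Both counts in pht1∆ at 16 °C stayed within 1.5 times.

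With arrays scaled to equal spread, the index was called for 130 in pht1∆ at 30 °C, 406 in pht1∆ usp107DAmP, 120 in pht1∆ at 16 °C, and 633, 824 and 245 in swr1∆, prp16DAmP and swr1∆ prp16DAmP at 37 °C. Junction over intron gave 229 in pht1∆ at 30 °C, 512 in pht1∆ usp107DAmP, and 376, 288 and 83 at 37 °C. The direct comparisons gave 0 for 16 °C against 30 °C, 3 for swr1∆ against pht1∆, 179 for pht1∆ usp107DAmP against pht1∆ and 688 for swr1∆ prp16DAmP against swr1∆. With each array centred on its junctions, junction over intron gave 378 in usp107DAmP and 1011 in pht1∆ usp107DAmP, and the index gave 7 for 16 °C against 30 °C and 3 for swr1∆ against pht1∆. Without repeated values, junction over intron gave 365 in pht1∆ at 30 °C.

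With the junction feature alone, 1041 were called in pht1∆ at 30 °C, 796 in pht1∆ at 16 °C, 640 in prp16DAmP and 716 in pht1∆ prp16DAmP at 16 °C, and 3, 0 and 9 at 37 °C. Signs changed for bud20 1-2 in pht1∆ at 30 °C (-0.40), bdp1 2-3 (0.040) and 3-4 (0.050) in swr1∆ at 30 °C, and sar1 1-2 (-0.31), nrk1 3-4 (-0.32) and SPAC222.18 2-3 (0.011) in usp107DAmP. They also changed for SPAC3G6.05 3-4 (-0.034), pop23 2-3 (-0.31), nrk1 3-4 (-0.41) and SPAC222.18 2-3 (0.12) in pht1∆ usp107DAmP, and for SPAC212.06c 1-2 (0.068) and pop23 2-3 (0.43) in pht1∆ at 16 °C. In pht1∆ prp16DAmP they changed for SPMIT.05 1-2 (-0.28) and nrk1 3-4 (-0.10), and at 37 °C for arf1 1-2 (0.0038) and ppx1 1-2 (0.11) in swr1∆ and SPAC1F12.06c 1-2 (0.13) in prp16DAmP.

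Without the 6 arrays that stood apart, the index gave 640 in usp107DAmP, 312 in pht1∆ at 16 °C, and 69, 24 and 379 at 37 °C. Junction over intron gave 900 in prp16DAmP and 853 in pht1∆ prp16DAmP at 16 °C, and 8, 5 and 109 at 37 °C. The direct comparisons gave 68 for 16 °C against 30 °C, 13 for swr1∆ against pht1∆ and 659 for swr1∆ prp16DAmP against swr1∆. With the sign of the swr1∆ arrays at 37 °C turned, that last comparison gave 9, and arf1 1-2 (-0.32), ppx1 1-2 (-0.38), pre8 2-3 (-0.0057), pmk1 3-4 (0.10) and ypt1 3-4 (0.19) changed sign.

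With the replicate number as a block, 0 were called for 16 °C against 30 °C in pht1∆, 0 for swr1∆ against pht1∆, 0 for pht1∆ usp107DAmP against pht1∆ and 549 for swr1∆ prp16DAmP against swr1∆, and the count for pht1∆ prp16DAmP against pht1∆ stayed within 1.5 times. Outside the swr1∆ and pht1∆ pair at 30 °C pairing by number was less clear or absent. Same-numbered deviations correlated at -0.143, 0.0279 and 0.330 for pht1∆ at 16 °C and 30 °C. For swr1∆ prp16DAmP and swr1∆ they correlated at 0.196, 0.0609 and 0.278, and differently numbered ones at between -0.243 and 0.132. Whether the numbers pair the arrays in that comparison is not settled.

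Leaving out 1 array of a group at a time gave 161 to 250 index calls in pht1∆ at 30 °C, 50 to 393 in usp107DAmP, 485 to 1554 in pht1∆ usp107DAmP, 45 to 149 in pht1∆ at 16 °C, 362 to 873 in prp16DAmP and 407 to 954 in pht1∆ prp16DAmP at 16 °C. It gave 0 to 17 in swr1∆, 1 to 1 in prp16DAmP and 6 to 194 in swr1∆ prp16DAmP at 37 °C, and 36 to 242 in swr1∆ at 30 °C. For junction over intron the ranges in that order were 332 to 526, 193 to 565, 546 to 1744, 789 to 1238, 132 to 453, 142 to 318, 0 to 1, 0 to 1, 0 to 13 and 41 to 477. The direct comparisons gave 4 to 47 for 16 °C against 30 °C, 4 to 10 for swr1∆ against pht1∆, 447 to 1269 for pht1∆ usp107DAmP against pht1∆, 197 to 634 for pht1∆ prp16DAmP against pht1∆ and 4 to 432 for swr1∆ prp16DAmP against swr1∆.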
